A study of Homo sapiens with 2 samples.

Results

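The 35 genes described here encode the glucose and lactate transporters, the enzymes that turn glucose into lactate, the regulators that set the flux between glycolysis and the mitochondria, and the core of the hypoxia-inducible factor (HIF) pathway with 4 of its targets. They were taken by name from a fixed list of 35 among the 61806 Ensembl genes of the deposited count table. Of these, 34 were matched by symbol in the FPKM tables, which hold 13924 genes, and ADM was matched by its Ensembl identifier in the count table. The cells were HEL, an established human line of erythroleukemia origin, labelled as wild type. One culture label gives L1 (1 µM), a synthetic derivative of diindolylmethane, and the other gives the DMSO vehicle (0.5%), and the time was 24 h in each case. Poly(A) RNA went into 1 library per condition.

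Glycolysis splits 1 glucose into pyruvate in the cytosol, and lactate dehydrogenase turns pyruvate into lactate, which leaves the cell with a proton through monocarboxylate transporters. The pace is set mainly by hexokinase, phosphofructokinase and pyruvate kinase. HIF is a pair of an oxygen-labile alpha subunit, encoded by HIF1A or EPAS1, and the stable subunit ARNT. When oxygen is present, prolyl hydroxylases of the EGLN family mark the alpha subunit for VHL, which sends it to the proteasome, so HIF activity is controlled mostly at the protein level. HIF binds a short core, ACGTG or GCGTG, and many glycolytic genes are among its known targets, as are VEGFA, BNIP3, ADM and ANKRD37.

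Total counts were 32556872 for DMSO and 27135647 for L1, scaled here by edgeR's TMM factors, which made the effective size of the DMSO library 1.16 times that of L1. A log2 ratio below is L1 over DMSO in scaled counts, so that 1 stands for a doubling. With 1 library per condition no spread between cultures could be estimated, so there is no test and there are no p-values. Each single-gene ratio carries an exact 95% Clopper-Pearson interval, which holds the counting error and nothing else. Fewer cells of a type and less RNA per cell cannot be told apart in such bulk libraries. All 15 erythroid markers had counts in both libraries, among them GATA1, and 4 of 5 megakaryocytic markers did, with PF4 at 0. Of the T lymphoid markers, CD3D, CD3E and LCK were at 0 in both libraries, as were EPCAM, KRT19, ESR1 and ALB of the epithelial and liver list. The rest of both lists had counts. CD7 had 60 under DMSO and 42 under L1, CD2 had 57 and 55, and CD3G had 2 and 5. KRT18 had 439 and 376, KRT8 had 342 and 234, CDH1 had 6 and 5, and APOA1 had 5 and 4. The erythroid list itself differed between the libraries. Its summed level in CPM, a count relative to the scaled library size, was 2837 under DMSO and 3246 under L1. Log2 ratios were above 0 for 11 of its 15 genes and below 0 for 4. Past 2-fold were 5 on the higher side (HBG1, HBA1, HBA2, HBZ and HBE1) and 1 on the lower (TFRC). The shares past 2-fold were 7.12% and 4.83% of the 18123 genes with at least 10 counts in 1 library. HBG1 had 5620 counts under DMSO and 16681 under L1, and TFRC had 17721 and 6420. The part of these differences in the values below was not tested. For the other lists the summed levels were 1741 and 1601 CPM (megakaryocytic), 3.72 and 3.69 (T lymphoid) and 24.7 and 22.4 (epithelial and liver).

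Most of the 35 genes differed little between the libraries. At least 2-fold higher in L1 were PFKFB3 and ADM, 2 of the 35, against 7.12% of the 18123 genes with at least 10 counts in 1 library. None of the 35 was at least 2-fold lower, against 4.83% of those genes. ADM, with 0 counts under DMSO and 17 under L1, passed the minimum of 10 counts only through the L1 library. With 0 counts under DMSO, its place on the higher side follows from that minimum. At a threshold of 1.5-fold the higher genes were the same 2 (background 13.8%), and VEGFA was the 1 gene on the lower side (background 11.4%). The median log2 ratio of the 35 was -0.013, and that of all 18123 genes was -0.0040. Across many genes the ratios include a prior count of 2, which matters for low counts such as those of ADM.

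These genes are abundant, and abundant genes as a whole differed less. Of the 35, 27 had at least 1000 counts in 1 library, and 1 of the 27 was at least 2-fold higher and 0 were lower. Among all 6479 genes at that level, 2.04% passed 2-fold on the higher side and 2.08% on the lower side, and the 5th to 95th percentile of their log2 ratios ran from -0.65 to 0.60. At 1.5-fold the 27 had 1 gene on each side, against 5.19% higher and 6.22% lower among the 6479. Of the 27, VEGFA and PFKFB3 lay outside that range, on the lower and the higher side. Small differences can be seen at such depth. Counting intervals lay wholly above 0 for 13 of the 35 genes and wholly below 0 for 14, against 26.8% and 28.6% of all genes kept, and for the 27 abundant members the numbers were 10 and 13, against 34.1% and 41.8% of the 6479.

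Both glucose transporters were slightly lower in the L1 library. SLC2A1 encodes GLUT1, the basal transporter of red cells and many tumours, and had 4076 counts under DMSO and 2997 under L1. SLC2A3 encodes GLUT3, which has a high affinity for glucose, and had 6509 and 4977 counts. The DMSO library had the higher value for each gene after scaling, with log2 ratios of -0.23 (95% interval -0.30 to -0.16) for SLC2A1 and -0.17 (-0.23 to -0.12) for SLC2A3. Per length, SLC2A3 was the more abundant, at 33.7 FPKM in DMSO and 29.9 in L1, against 19.4 and 16.5 FPKM for SLC2A1. Of the 31-base words in the SLC2A3 transcripts, 25.3% also occur in its paralogue SLC2A14, so part of its reads could not be placed with certainty.

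The 17 enzymes from hexokinase to lactate dehydrogenase had a median log2 ratio of -0.044 and ranged from -0.44 for PFKL to 0.51 for ALDOC. Of all counts before scaling they took up 1.37% under DMSO and 1.34% under L1, and the log2 ratio of their summed counts after scaling was -0.080. Without GAPDH, the other 16 took up 0.909% and 0.910%, with a log2 ratio of -0.048. Intervals lay above 0 for 6 of the 17 enzymes, below 0 for 8, and across 0 for 3, close to the 34.1% above and 41.8% below among all genes with at least 1000 counts. None of the 17 was past 1.5-fold. The 9 enzymes that lead from glucose to the triose phosphates had a median of -0.044 and the 6 from triose phosphate to pyruvate one of -0.024.

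At the first step, hexokinase traps glucose in the cell as its phosphate. HK1, the housekeeping form, had 7147 counts under DMSO and 6151 under L1, which is 223 CPM in each. HK2, the form most often induced in tumours and by HIF, had 2918 and 2429 counts. Neither differed beyond counting error, with log2 ratios of -0.0034 (95% interval -0.053 to 0.046) and -0.052 (-0.13 to 0.027), and the sign of HK1 turned under total count and upper quartile scaling. HK2 is overlapped on the opposite strand by AC019069.1, with 520 and 336 counts. GPI, which isomerises glucose 6-phosphate, had 14107 and 10071 counts and a log2 ratio of -0.27 (-0.31 to -0.24).

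Phosphofructokinase commits the sugar to glycolysis, and its 3 subunit genes differed from each other. PFKL, the liver-type subunit (chromosome 21, 44300051 to 44327376 on GRCh38), had 8202 counts under DMSO and 5202 under L1. PFKP, the platelet-type subunit, had 7259 and 6204 counts. PFKM, the muscle-type subunit, had 2156 and 2004 counts. After scaling, PFKL was lower in L1, by the most among the 17 enzymes (log2 ratio -0.44, 95% interval -0.49 to -0.39), the interval of PFKP held 0 (-0.063 to 0.036), and PFKM was slightly higher (0.11, 0.019 to 0.20). PFKM is overlapped on the opposite strand by SENP1, with 2169 and 1664 counts, and no strand setting of the counts is given. By FPKM, PFKL made up 42.7% of the 3 subunits in DMSO and 35.2% in L1, while PFKP went from 43.4% to 48.2%.

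Aldolase cleaves the hexose bisphosphate, and its minor form differed most. ALDOC, the brain-type aldolase (chromosome 17, 28573115 to 28577264), had 1647 counts under DMSO and 2026 under L1, or 19.8 and 28.3 FPKM. ALDOA, the main form, had 14895 and 12465 counts, or 122 and 119 FPKM. ALDOC was thus 1.43-fold higher in the L1 library (log2 ratio 0.51, 95% interval 0.42 to 0.61), the highest value of the 17 enzymes, and ranked 409 from the top among the 6479 abundant genes. For ALDOA the log2 ratio was -0.044 (-0.078 to -0.0094), and it turned positive under total count scaling. ALDOA is overlapped on the same strand by AC093512.2, a protein-coding gene model with 5487 and 6997 counts, and with both summed the log2 ratio was 0.15 (0.12 to 0.17).

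TPI1, which interconverts the triose phosphates, had 25955 counts under DMSO and 18515 under L1. GAPDH, the first enzyme of the pay-off phase and the reference for RT-qPCR and Western blots in this study, had 151021 and 117785 counts. Both were lower in L1 after scaling, TPI1 with a log2 ratio of -0.27 (95% interval -0.30 to -0.25) and GAPDH with -0.15 (-0.16 to -0.13). GAPDH was the most abundant of the 17 enzymes per length, at 1983 FPKM in DMSO and 1793 in L1. Expressed relative to GAPDH, every log2 ratio in the library would be higher by 0.15, and ALDOA, HK1, HK2, LDHB, PDK1 and PFKP would turn from just below 0 to above it. Annotated GAPDH pseudogenes, 62 in the count table, added 647 and 602 counts, and with them the log2 ratio was -0.14. GAPDH is overlapped on the opposite strand by AC006064.4, with 6647 and 5420 counts.

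Further down, PGK1, which makes the first ATP of the pathway, had 10409 counts under DMSO and 10475 under L1. PGAM1, the mutase, had 9363 and 8641, and ENO1, the main enolase, had 62363 and 60541. These 3 consecutive enzymes were higher in the L1 library after scaling, with log2 ratios of 0.22 (95% interval 0.18 to 0.26), 0.097 (0.055 to 0.14) and 0.17 (0.15 to 0.19). PKM, the pyruvate kinase that closes glycolysis, had 52258 and 37633 counts and went the other way, at -0.26 (-0.28 to -0.24). ENO2, the neuronal enolase and a known HIF target, was lower as well, with 4397 and 3115 counts and a log2 ratio of -0.28 (-0.35 to -0.22).

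Lactate dehydrogenase is built from LDHA and LDHB subunits, of which LDHA favours making lactate and LDHB favours making pyruvate. LDHB was the more abundant by far, at 621 FPKM in DMSO and 589 in L1, while LDHA had 72.8 and 80.7 FPKM. LDHB held most of the step in both libraries. In counts, LDHA had 13964 under DMSO and 13362 under L1 (log2 ratio 0.15, 95% interval 0.12 to 0.18), and LDHB had 58907 and 48207 (-0.076, -0.094 to -0.059). The same-strand gene model AC010197.2, which holds 30.6% of the LDHB words, had 453 and 86 counts, and summing it with LDHB left a log2 ratio of -0.085.

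**Figure D1:**
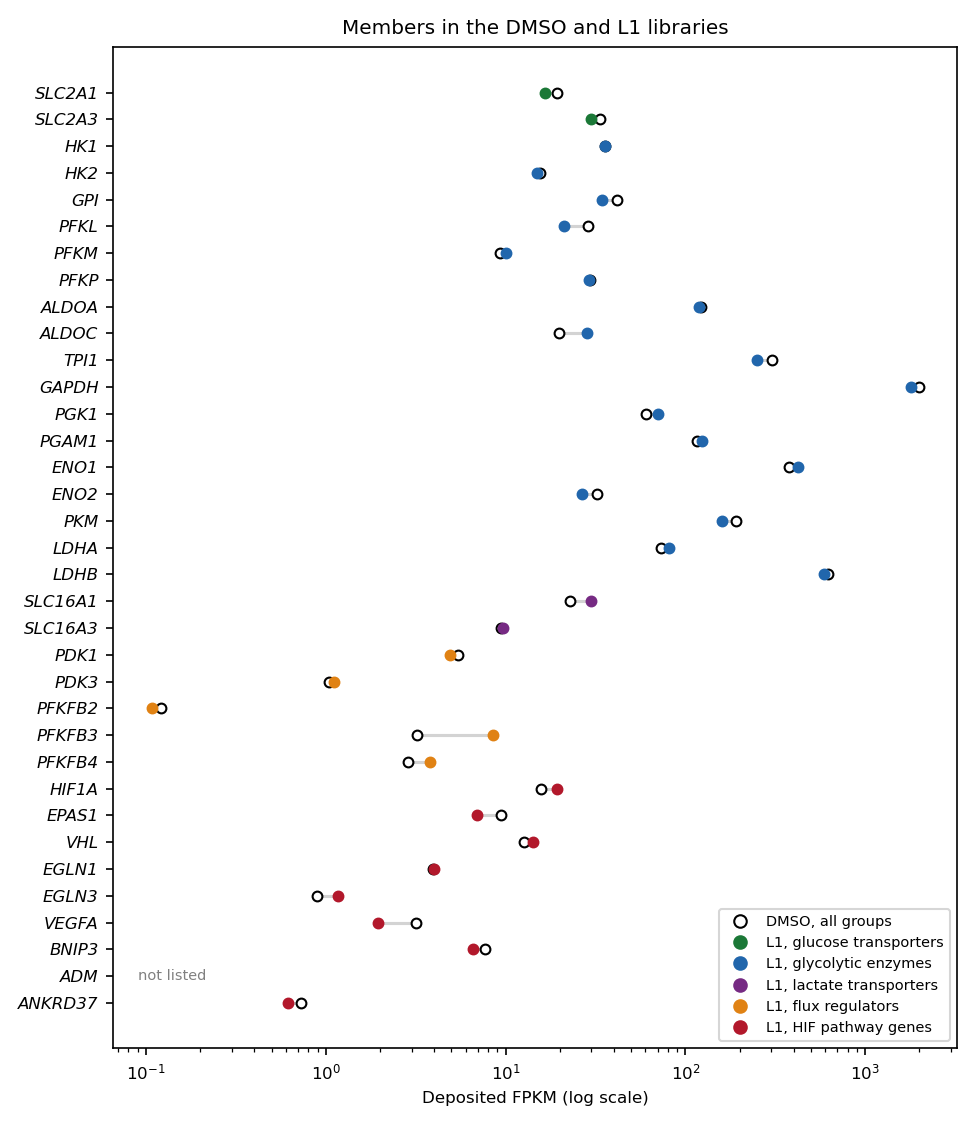
Deposited FPKM on a log scale (x axis) of each gene (y axis) in the DMSO library (open circles) and the L1 library (filled circles, coloured by role), with 1 library per condition. GAPDH has the highest levels, 1983 and 1793 FPKM, PFKFB2 the lowest, 0.121 and 0.107, and PFKFB3 the widest gap. ADM is not listed in the FPKM tables.

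The ratio of 2 partner genes inside 1 library does not depend on how libraries are scaled, and 12 such pairs were compared. The widest shift was that of PFKFB3 against PFKFB4, whose count ratio was higher in L1 by 1.00 on the log2 scale (95% interval 0.79 to 1.22, exact conditional method). HIF1A against EPAS1 followed, with 0.73 (0.60 to 0.85). Among the enzymes, PFKL stood lower against PFKM by -0.55 (-0.65 to -0.45) and against PFKP by -0.43 (-0.50 to -0.36), ALDOA stood lower against ALDOC by -0.56 (-0.66 to -0.46), and ENO1 stood higher against ENO2 by 0.45 (0.39 to 0.52). LDHA against LDHB shifted by 0.23 (0.19 to 0.26), but with overlapping gene models summed the ALDOA shift was -0.37 rather than -0.56. SLC16A1 stood higher against SLC16A3 by 0.36 (0.26 to 0.45). EGLN1 stood lower against EGLN3 by -0.36 (-0.68 to -0.042), and PDK1 against PDK3 by -0.23 (-0.42 to -0.035). The intervals of HK1 against HK2 (-0.045 to 0.14) and SLC2A1 against SLC2A3 (-0.14 to 0.031) held 0.

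**Figure D2:**
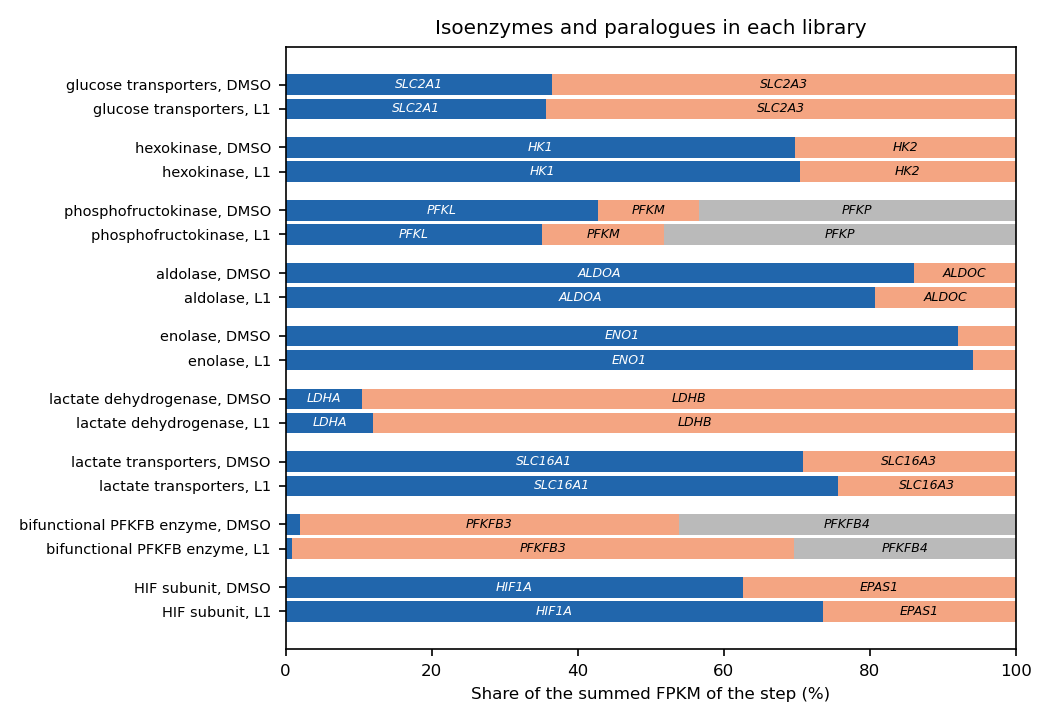
Share of the summed FPKM of a step (x axis, %) held by each isoenzyme or paralogue, with the DMSO library above the L1 library for each step (y axis). The hexokinase and glucose transporter bars differ by about 1 percentage point or less, PFKFB3 grows from 51.9% to 68.7%, and HIF1A from 62.7% to 73.5%.

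Of the lactate transporters, 1 of 2 differed beyond counting error. SLC16A1 encodes MCT1, which carries lactate in both directions, and had 4617 counts under DMSO and 5200 under L1. SLC16A3 encodes MCT4, the export form that HIF induces, and had 2767 and 2436. SLC16A1 was higher in L1, by a log2 ratio of 0.38 (95% interval 0.33 to 0.44), and the interval of SLC16A3 held 0 (-0.050 to 0.11). SLC16A1 made up 70.8% of both by FPKM in DMSO and 75.6% in L1. SLC16A3 is overlapped on the opposite strand by CSNK1D, with 3551 and 3130 counts.

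PFKFB3 had the highest log2 ratio of the 34 members with counts in both libraries. It encodes the bifunctional enzyme with high kinase activity that makes the allosteric activator of phosphofructokinase, and lies on chromosome 10 from 6144934 to 6254644 on GRCh38. It had 624 counts under DMSO and 1434 under L1, and 3.21 and 8.55 FPKM. The L1 library was thus 2.66-fold higher, with a log2 ratio of 1.41 and an interval from 1.28 to 1.55 that lay wholly past 2-fold. PFKFB3 ranked 64 from the top among the 6479 genes with at least 1000 counts in 1 library. Other genes share only 0.383% of its 31-base words, no annotated exon of another gene overlaps it, and its log2 ratio stayed past 1 under every scaling and both FPKM settings tried.

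Its paralogues differed less. PFKFB4, a known HIF target, had 554 counts under DMSO and 635 under L1, a log2 ratio of 0.41 (95% interval 0.24 to 0.58). PFKFB2, the heart-type form, had 39 and 30 counts, and at this depth no difference was detectable (-0.17, -0.90 to 0.56). PFKFB2 is also overlapped on the opposite strand by YOD1, which had 5421 and 5082 counts, and no source used here states a strand setting for the counts. Of the pyruvate dehydrogenase kinases, which keep pyruvate out of the mitochondria, PDK1 had 2558 and 2006 counts and PDK3 had 576 and 529. PDK1, a classical HIF target, was slightly lower in L1 (-0.14, -0.22 to -0.053) except on division by GAPDH counts, and the interval of PDK3 held 0 (-0.083 to 0.26).

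The sequences before the starts of PFKFB3, PFKFB4, ALDOC and PFKL are shown for the letters of the HIF core. RefSeq windows of 300 bases (GRCh38.p14, 250 before to 50 after a start) were matched by symbol for 30 of the 35 genes, with 57 starts in all, and PFKFB2, SLC16A1, SLC2A3, VEGFA and VHL are not in that table. Capitals mark ACGTG or GCGTG on either strand, so that CACGT and CACGC are the same letters read from the other strand, and CACGTG, the E-box, holds ACGTG on both. The first 2 windows belong to PFKFB3, at chr10:6202682-6202981 and chr10:6144671-6144970 on the plus strand. PFKFB4 is shown as the paralogue that differed less (chr3:48556754-48557053, minus strand), and ALDOC (chr17:28576846-28577145, minus strand) and PFKL (chr21:44299803-44300102, plus strand) as the highest and the lowest of the enzymes.
PFKFB3, inner start: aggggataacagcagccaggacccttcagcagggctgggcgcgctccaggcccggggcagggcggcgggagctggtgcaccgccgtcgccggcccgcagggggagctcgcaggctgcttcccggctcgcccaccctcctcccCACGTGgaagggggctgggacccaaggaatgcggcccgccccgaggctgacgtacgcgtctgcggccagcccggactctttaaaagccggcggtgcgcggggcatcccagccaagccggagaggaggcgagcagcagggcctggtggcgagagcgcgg
PFKFB3, outer start: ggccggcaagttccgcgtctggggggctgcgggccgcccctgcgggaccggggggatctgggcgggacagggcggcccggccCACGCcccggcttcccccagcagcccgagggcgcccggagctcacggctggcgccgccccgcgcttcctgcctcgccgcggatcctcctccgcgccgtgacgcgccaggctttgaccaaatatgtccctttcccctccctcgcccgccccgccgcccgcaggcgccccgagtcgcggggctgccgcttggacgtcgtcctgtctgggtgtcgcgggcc
PFKFB4: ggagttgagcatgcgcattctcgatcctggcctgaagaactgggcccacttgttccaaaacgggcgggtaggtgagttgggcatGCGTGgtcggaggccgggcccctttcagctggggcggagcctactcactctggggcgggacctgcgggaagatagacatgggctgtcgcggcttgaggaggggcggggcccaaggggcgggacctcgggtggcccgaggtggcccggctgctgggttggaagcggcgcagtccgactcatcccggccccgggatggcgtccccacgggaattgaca
ALDOC: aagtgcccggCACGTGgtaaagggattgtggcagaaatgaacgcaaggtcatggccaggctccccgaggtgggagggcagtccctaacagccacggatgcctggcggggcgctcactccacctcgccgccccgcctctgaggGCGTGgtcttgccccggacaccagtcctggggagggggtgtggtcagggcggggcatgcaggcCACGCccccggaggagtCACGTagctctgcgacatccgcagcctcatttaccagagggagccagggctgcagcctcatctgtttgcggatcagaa
PFKL: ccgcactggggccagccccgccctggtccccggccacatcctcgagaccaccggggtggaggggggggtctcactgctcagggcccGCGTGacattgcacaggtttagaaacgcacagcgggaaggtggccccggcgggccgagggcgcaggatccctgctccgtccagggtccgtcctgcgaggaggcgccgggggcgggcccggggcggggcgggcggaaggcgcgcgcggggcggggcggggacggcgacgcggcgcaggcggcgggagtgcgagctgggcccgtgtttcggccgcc

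The inner PFKFB3 window holds an E-box whose first base lies at -108 from the start, and the outer window holds CACGC at -168. ALDOC, with 5 matches when both strands of its E-box are counted, has the most of the 4 genes shown, and PFKFB4 and PFKL have 1 GCGTG each. The ADM window, which is not shown, holds 1 GCGTG, at -101. Over the 57 windows of the 30 genes, 38 (66.7%) hold ACGTG or GCGTG on at least 1 strand, against 48.4% of all 35116 windows of the same length in the table. Several of these windows overlap, since some genes have many starts, and they were richer in G and C than the rest, with a median of 69.7% against 58.7%. The core of the aryl hydrocarbon receptor site, TNGCGTG, which contains GCGTG, was found in 1 of the 57 windows, that of ENO1, against 5.51% of all windows. A match of letters is a description of the window and says nothing of binding in these cells.

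Of the 9 HIF pathway genes, intervals lay above 0 for 4, below 0 for 3 and across 0 for 2, where 26.8% of all genes kept lay above 0 and 28.6% below. Among the genes with at least 1000 counts, beside which the enzymes were set, these shares were 34.1% and 41.8%. ADM, with 0 counts under DMSO, is 1 of the 4 above 0. HIF1A (chromosome 14, 61695513 to 61748259), the broadly expressed alpha subunit, had 2585 counts under DMSO and 2733 under L1, or 15.8 and 19.3 FPKM. EPAS1 (chromosome 2, 46293667 to 46386703), which encodes the alpha subunit of HIF2 and is best known for control of erythropoietin, had 2180 and 1392 counts, or 9.41 and 6.96 FPKM. After scaling, HIF1A was higher in the L1 library, by a log2 ratio of 0.29 (95% interval 0.22 to 0.37), and EPAS1 was lower, by -0.43 (-0.53 to -0.34). HIF1A exceeded EPAS1 by FPKM in both libraries, by 1.68 times in DMSO and 2.78 times in L1.

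The oxygen-sensing genes lay at or above 0. VHL, the adaptor that recognises hydroxylated HIF, had 2020 counts under DMSO and 1946 under L1 (log2 ratio 0.16, 95% interval 0.069 to 0.25). EGLN1, the main HIF prolyl hydroxylase, had 673 and 591 counts, and its interval held 0 (-0.14 to 0.19). EGLN3, a hydroxylase that HIF itself induces, had 210 and 237 counts and was higher in L1 (0.39, 0.11 to 0.66). EGLN3 was low in both libraries, at 0.897 and 1.17 FPKM, against 3.93 FPKM for EGLN1 under DMSO.

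Of the 4 HIF targets outside glycolysis, the 3 with counts in both libraries had ratios below 0, 1 of them within counting error. VEGFA, the angiogenic growth factor (chromosome 6, 43770184 to 43786487), had 1454 counts under DMSO and 774 under L1, or 3.17 and 1.96 FPKM. It was the lowest of the 35 genes, with a log2 ratio of -0.70 (95% interval -0.82 to -0.57), and ranked 285 from the bottom of the 6479 abundant genes. BNIP3, a mitophagy receptor, had 993 and 729 counts (-0.23, -0.37 to -0.093), and with its pseudogenes, which added 66 and 19 counts, the log2 ratio was -0.29. ANKRD37, a small ankyrin-repeat protein, had 52 and 38 counts, too few to show a difference (-0.24, -0.88 to 0.39). It is overlapped on the opposite strand by UFSP2, with 590 and 352 counts.

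ADM, which encodes the vasodilator peptide adrenomedullin (chromosome 11, 10304680 to 10307397), had 0 counts under DMSO and 17 under L1. Set against the 3 counts that a count of 0 allows in the DMSO library, it was 6.57-fold higher in L1 after scaling, taking the 17 counts as they stand. With the counting error of the 17 counts included, the exact interval of its log2 ratio began lower, at 2.26. The level was low even so, at 0.616 CPM in L1, and the gene is not listed in the FPKM tables.

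**Figure D3:**
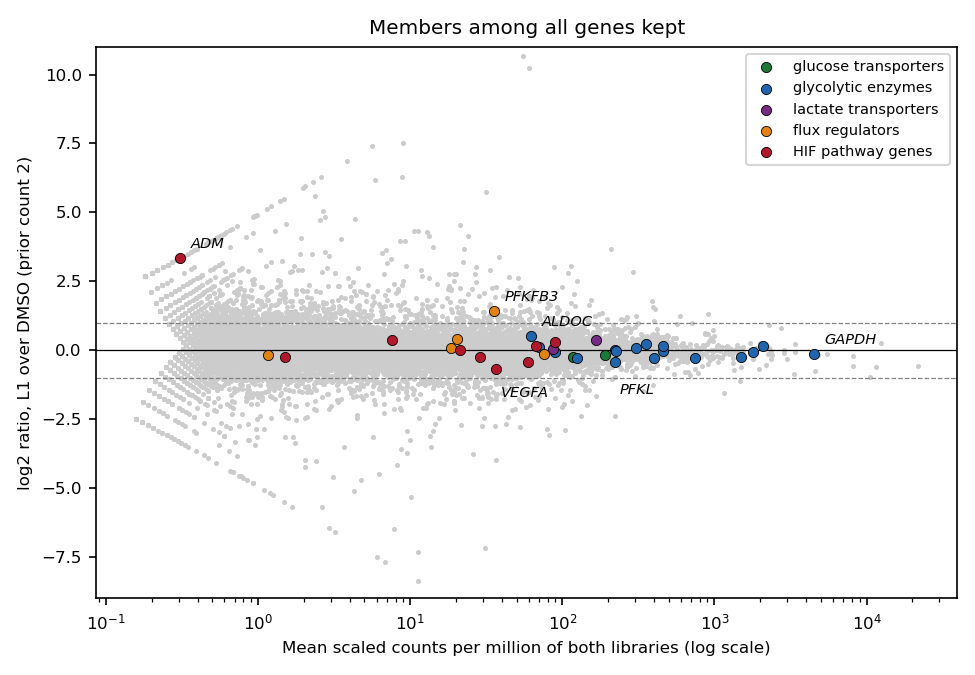
Mean CPM of both libraries (x axis, log scale) against the log2 ratio with a prior count of 2 (y axis) for the 18123 genes kept (grey), with the 35 genes coloured by role and dashed lines at 2-fold. PFKFB3 stands above the dashed line among genes of its level, ADM sits at the low-count edge, and the abundant enzymes up to GAPDH lie close to 0.

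Glycolytic enzymes and HIF pathway genes were compared as groups. The median log2 ratio was -0.044 over the 17 enzymes and 0.026 over the 9 HIF pathway genes, a difference of -0.069, and the HIF median without ADM was -0.10. Leaving out ADM, a gene with 17 counts, turned the sign of the difference to 0.058, while leaving out ANKRD37 as well gave -0.069 again. The enzymes ran from -0.44 to 0.51 and the HIF pathway genes from -0.70 for VEGFA to 0.39 for EGLN3, with ADM beyond that. By role, the medians were -0.070 for the HIF subunits, 0.16 for the oxygen-sensing genes and -0.23 for the targets.

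A wider list of 69 genes of the same pathways, 55 of which had at least 10 counts in 1 library, was scored in the same way. It held 2 genes past 2-fold on the higher side and 1 on the lower side, against 7.12% and 4.83% of all genes kept, and its median was -0.066. Of 20 glycolysis and pyruvate genes (median -0.11), 1 was at least 2-fold higher, the hexokinase gene HK3. It had 5 counts under DMSO and 17 under L1, and reached the minimum of 10 counts only through the L1 library. Its log2 ratio without a prior count was 1.98, with a counting interval from 0.48 to 3.77 that began below 2-fold. Of 11 HIF subunits and regulators (median 0.066), 0 passed 2-fold in either direction. Of 24 hypoxia targets (median -0.0014), 1 passed 2-fold in each direction, which is no more than those shares of all genes.

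DDIT4, which encodes the mTORC1 inhibitor REDD1, had 178 counts under DMSO and 355 under L1, and a log2 ratio of 1.21 (95% interval 0.95 to 1.48). AK4, a mitochondrial adenylate kinase, had 3396 and 922 counts and was lower in L1, by -1.67 (-1.77 to -1.56). DDIT4 shares no 31-base word with another gene, and AK4 shares 7.72%. The 6 annotated AK4 pseudogenes had 189 counts under DMSO and 171 under L1, which are not part of its ratio. Named after their values were seen, PGM1, which feeds glycogen sugar into glycolysis, had 3715 and 1785 counts (-0.84, -0.93 to -0.76), and DLAT, a subunit of pyruvate dehydrogenase, had 4358 and 2034 (-0.89, -0.96 to -0.81). PGM1 is overlapped on the opposite strand by ITGB3BP, with 2328 and 1401 counts.

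Among the regulators, ARNT, the shared partner of HIF and the aryl hydrocarbon receptor, had 1028 counts under DMSO and 734 under L1, a log2 ratio of -0.27 (95% interval -0.41 to -0.13). EGLN2, another HIF hydroxylase, had 1711 and 2136 counts and was higher in L1 (0.53, 0.44 to 0.63). CITED2, an inhibitor of HIF coactivators, had 8241 and 5171 counts and was lower (-0.46, -0.51 to -0.41). These 3 genes were also named after their values were seen, and all stayed under 1.5-fold.

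**Figure D4:**
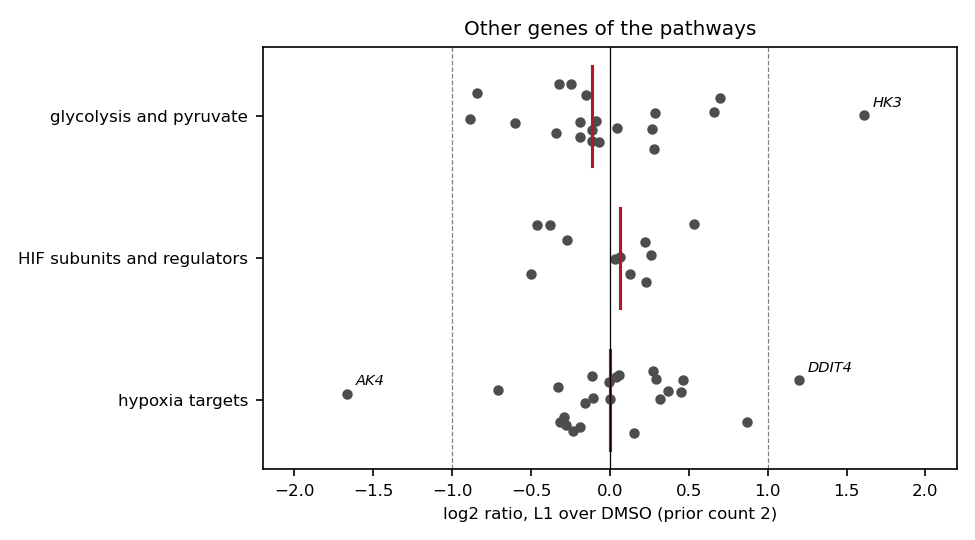
Log2 ratio with a prior count of 2 (x axis, L1 over DMSO) of the 55 other pathway genes with enough counts, by list (y axis), with list medians as red lines, dashed lines at 2-fold and points spread vertically for legibility. Past 2-fold are HK3 and DDIT4 on the higher side and AK4 on the lower side.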

How the data were processed

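RNA of HEL cells treated with L1 or DMSO was sequenced in 1 library per condition. Per the labels and the paper's methods, reads were aligned with HISAT2 2.1.0 to hg38, and the submitters' processing notes also name fastp 2.0 and StringTie. The authors deposited raw read counts per Ensembl gene, without normalization, and FPKM values for 13924 genes. Each FPKM table also holds 1 row that names no gene and was left out. The counting program, the annotation and any strand setting are not given in the sources used here.

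Counts were scaled by TMM with edgeR 4.0.16 in R 4.3.3. An alternative used the size factors of DESeq2 1.42.0. Other steps used Python 3.11.15 and scipy 1.17.1. Genes with at least 10 counts in 1 library were kept, and ratios across genes had a prior count of 2. Single-gene ratios have no prior count and an exact 95% interval for counting error only, and reads are not independent molecules. Genes under about 100 counts have wide intervals. Positions, overlaps, pseudogenes and shared 31-base words came from GENCODE 29 (GRCh38). The scaling, the ratios and the single-gene intervals were tested on simulated counts that held counting error but no spread between cultures. The other steps were not tested in this way.

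The members and lists were chosen with earlier results of these data known. Named are all 35 members, genes of the wider list past 2-fold with at least 100 counts, and those said to be named after their values were seen. Some genes whose exons overlap a member are named as well. Exons of other genes overlap 9 members on the same strand and 16 on the opposite strand, and not all of those genes are named. Pseudogenes are given as sums. HK3 completes a count, and SLC2A14, AC093512.2 and AC010197.2 share sequence with a member. Alternatives were total count, DESeq2 and upper quartile scaling, FPKM, prior counts of 0.5 and 5, other minimum counts and thresholds, and counts summed with pseudogenes. Division by GAPDH counts and sums with same-strand overlapping genes were chosen only after seeing the data.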

Additional observations from a re-analysis of the deposited data

How the results depend on the processing

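No paired analysis was possible because DMSO and L1 were sequenced once each, and for the same reason no replicate could be left out. The number of the 35 genes at least 2-fold higher in L1 was 2 under every scaling, both prior counts, the sums with pseudogenes or overlapping genes, and when the whole interval had to pass 2-fold. It was 1 with log2(FPKM + 1), with log2(FPKM + 0.1), with at least 1 count required in each library, and with at least 100 counts in 1 library, since each of these leaves out ADM. Under the settings that gave 2, ADM could not have dropped out, given its 0 counts under DMSO and the minimum of 10 counts. Its call there was fixed beforehand, so those settings say nothing further of ADM. The number at least 2-fold lower was 0 except at a 1.5-fold threshold, where it was 1. The median of the glycolytic enzymes stayed between -0.075 and 0.10 over 11 settings and that of the HIF pathway genes between -0.10 and 0.17. Their difference ran from -0.070 to 0.058, and was above 0 with log2(FPKM + 0.1) (0.048) and with a count required in each library (0.058). Of 272 single-gene values under the alternatives, 56 left the gene's counting interval, 28 of them on division by GAPDH counts. In 15 the sign changed, and in 6 of these the interval had excluded 0, namely 4 on division by GAPDH (ALDOA, LDHB, PDK1, and GAPDH, which is then 0 by construction), 1 with total counts (ALDOA) and 1 with overlapping genes summed (ALDOA). No spread between cultures is known, so differences of the size seen for most of these genes cannot be told apart from it.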
